A study of Mus musculus with 18 samples.

Results

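The plasma cell identity genes are a set of 10 genes. Irf4, Prdm1 and Pou2af1 encode regulators of transcription, Tnfrsf17, Tnfrsf13b and Il5ra encode receptors for survival and growth ligands, and Sdc1, Slamf7, Cd38 and Lax1 encode membrane proteins. They were chosen by symbol, with their measured difference between MM and SHAM libraries already known, so that difference is given below as a description and supports nothing. All 10 were present among the 48529 genes with summed reads, and 9 were among the 15774 genes that passed a filter on low counts.

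RNA was sequenced from whole dorsal root ganglia (DRG), which hold the cell bodies of sensory neurons along with glia, vessels and immune cells. The MM group was 9 male C57BL/KaLwRijHsd mice whose femur was inoculated with 5TGM1-GFP, a GFP-carrying line of mouse myeloma cells (malignant plasma cells). The SHAM group was 9 male mice of the same strain that had received vehicle in the femur. Both groups were 5 to 7 weeks of age per the labels, and lumbar ganglia L2, L3 and L4 of the inoculated side were collected 24 days after surgery. The tumour is a single cell line that derives from mice of this strain, so these counts do not separate transcripts of the line from those of the host. The series design counts mice, so a library stands for 1 mouse.

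A plasma cell forms when an activated B cell shuts down its B cell programme and turns to the secretion of antibody. IRF4 and BLIMP-1, the product of Prdm1, drive that switch, and both stay on in myeloma. The surface of the finished cell carries syndecan-1 (CD138, from Sdc1), SLAMF7 and CD38, and receptors of the ligands BAFF and APRIL, among them TACI (Tnfrsf13b) and BCMA (Tnfrsf17), keep it alive.

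Several libraries stood apart. Values are counts per 1000000 estimated reads after TMM scaling (CPM) unless another unit is named, and each library held between 19014161 and 21538262 estimated reads in genes, so that 3 reads equal 0.14 to 0.16 CPM. Ighg2b, the heavy chain constant gene of IgG2b, the isotype that 5TGM1 secretes, stood at 353, 11.7, 389, 390, 2200, 253, 104, 2330 and 4370 CPM in MM1 to MM9, against 1.65, 0.1, 0.351, 2.83, 14.8, 0.144, 1.1, 0.477 and 16.4 CPM in SHAM1 to SHAM9. MM5, MM8 and MM9 were the highest, MM2 lay inside the SHAM range, and SHAM5 and SHAM9 were the highest SHAM libraries. Reads of this constant region can be shared with those of related heavy chain genes. The summed markers of sensory neurons ranged from 3490 to 7640 CPM in MM and from 5580 to 7460 CPM in SHAM libraries, and those of ganglion glia from 2700 to 6930 CPM in MM and from 3020 to 5870 CPM in SHAM libraries.

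In the edgeR quasi-likelihood fit over all genes, at a Benjamini-Hochberg adjusted p under 0.05, 8 of the 9 members tested were called higher in MM and 0 lower. Of all genes tested, 2.75% were called higher and 0.241% lower. The members were selected on this contrast, so nothing is read from their count beside those shares. The same shares stand beside the edgeR counts of each list below. DESeq2 called 1376 of the 30729 genes in its fit. The share of all genes at an unadjusted p under 0.05 is not given here, so nothing is read from list counts at that threshold. The median log2 fold change of the 9 tested members was 4.24, beside -0.00419 for all genes tested. The filter asked for 9 libraries over its minimum. Among SHAM libraries that minimum was passed by 1 for Il5ra and for Lax1, by 3 for Prdm1 and by 6 for Irf4, Pou2af1 and Slamf7, so the place of these 6 among the tested genes depends on the MM libraries. Tnfrsf13b, Sdc1 and Cd38 were over the minimum in all 9 SHAM libraries. Without MM5, and without MM5, MM8 and MM9, the number of members called was 5, without SHAM5 and SHAM9 it was 4, and without SHAM7 and SHAM8 it was 5. In whole tissue, more cells of a type and more RNA per cell cannot be told apart.

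None of the 10 members separated the groups fully. The share of all genes that did so is not given here, so nothing is read from this count. MM2 lay inside the SHAM range for 7 members and below the lowest SHAM library for Sdc1 and Lax1. For Tnfrsf17, MM2 held 2 reads, which placed it above the highest SHAM library only through the scaling. MM9 was the highest library for 8 members, MM5 was the highest for Cd38, and MM6 was the highest for Tnfrsf17.

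**Figure D1:**
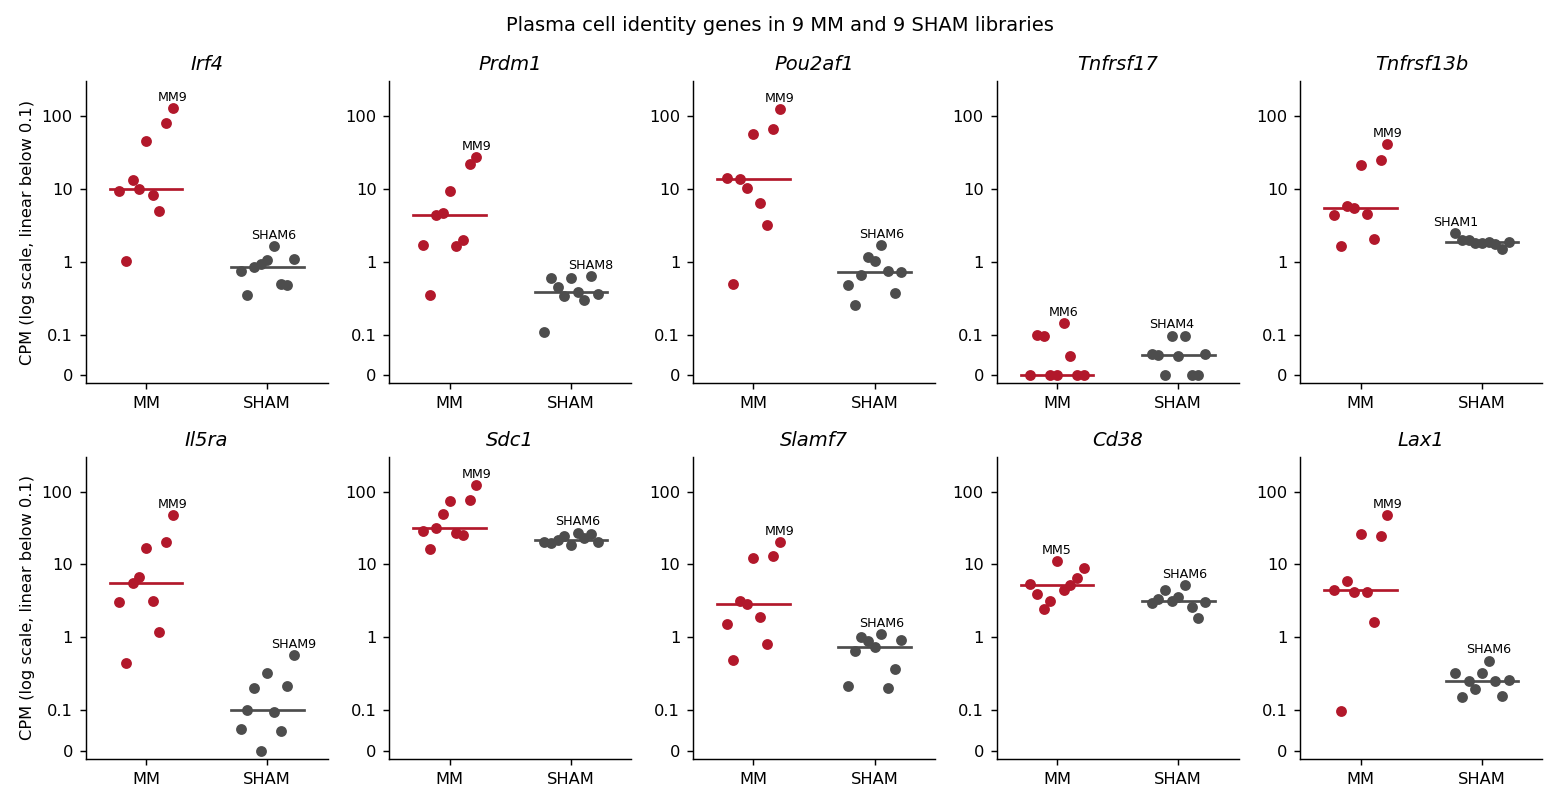
CPM of each member in every library, MM (red) left of SHAM (grey), on an axis that is logarithmic above 0.1 CPM and linear below it; points are libraries, lines are group medians, and the highest library of each group is named. MM9 is the highest point for 8 of 10 members, Tnfrsf17 lies at or below 0.142 CPM in both groups, and Sdc1 and Cd38 are the members with the highest SHAM values.

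Among the regulators, Irf4 (interferon regulatory factor 4, ENSMUSG00000021356) stood at 9.41, 1.03, 13, 9.95, 45.8, 8.09, 4.93, 78.7 and 128 CPM in MM1 to MM9, against 0.746, 0.351, 0.854, 0.927, 1.07, 1.63, 0.5, 0.477 and 1.08 CPM in SHAM1 to SHAM9. Of the 9 MM libraries, 8 were above the highest SHAM library, and MM2 was inside the SHAM range. The mean was 33.2 ± 43.6 CPM in MM and 0.849 ± 0.393 CPM in SHAM libraries (SD, n = 9 each), and the log2 fold change of MM over SHAM was 5.27 ± 0.80 (SE). Prdm1 (ENSMUSG00000038151), whose product BLIMP-1 represses B cell genes, stood at 1.68, 0.345, 4.39, 4.63, 9.22, 1.66, 1.96, 22 and 27.1 CPM in MM1 to MM9, against 0.107, 0.602, 0.452, 0.342, 0.605, 0.383, 0.3, 0.636 and 0.362 CPM in SHAM1 to SHAM9. MM8 and MM9 were the highest, and again 8 MM libraries exceeded every SHAM library. Its mean was 8.11 ± 9.77 CPM in MM and 0.421 ± 0.173 CPM in SHAM libraries, with a log2 fold change of 4.24 ± 0.71. Pou2af1 (ENSMUSG00000032053) encodes a coactivator that works with OCT factors in B-lineage cells. It stood at 14.2, 0.493, 13.5, 10.4, 57.2, 6.43, 3.16, 65 and 123 CPM in MM1 to MM9, against 0.48, 0.251, 0.653, 1.17, 1.02, 1.68, 0.75, 0.371 and 0.723 CPM in SHAM1 to SHAM9. The order of the MM libraries was close to that for Irf4, with MM9 highest and MM2 lowest, the mean was 32.7 ± 41.4 CPM in MM and 0.789 ± 0.444 CPM in SHAM libraries, and the log2 fold change was 5.35 ± 0.84. The calls of Irf4, Prdm1 and Pou2af1 held in each of the 18 fits that left out 1 library, and that of Prdm1 was lost without SHAM5 and SHAM9 (log2 fold change 4.31).

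Reads of Irf4 were divided by Salmon between a pair of full-length transcripts, Irf4-201 and Irf4-202, that differ by 3 coding bases at the start of exon 5. In the GENCODE M21 annotation the bases lie at chr13:30753445-30753447 on the + strand of GRCm38. The sequences around them are shown because they carry the only difference between these transcripts; capitals mark the bases that Irf4-201 alone holds.
Irf4-201: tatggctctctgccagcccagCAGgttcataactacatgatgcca
Irf4-202: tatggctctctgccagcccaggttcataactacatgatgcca
The share of Irf4-202 in the reads of both was 45.9%, 10.7%, 48.6%, 43%, 40%, 55.1%, 58.5%, 41.6% and 39.9% in MM1 to MM9, against 0%, 0%, 0%, 0%, 19%, 26.3%, 100%, 100% and 0% in SHAM1 to SHAM9. Pooled over libraries the share was 41.7% of 6084.7 reads in MM and 21% of 154 reads in SHAM. In MM9, the deepest library for this gene, the 95% Wilson interval ran from 38% to 41.8%, and in MM7 it ran from 48.6% to 67.3%. MM2 held 21 reads, and its interval of 2.65% to 28.9% lay below that of every other MM library. SHAM libraries held 7 to 34 reads each and jumped between 0% and 100%, so no share of the SHAM group can be read at this depth. Intervals here cover counting error alone, and the division of reads between transcripts that differ by so little is itself an estimate. They count every read assigned to either transcript, although only reads over the 3 bases can tell the transcripts apart. The intervals are therefore too narrow, and a difference in share between MM libraries was not tested.

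**Figure D2:**
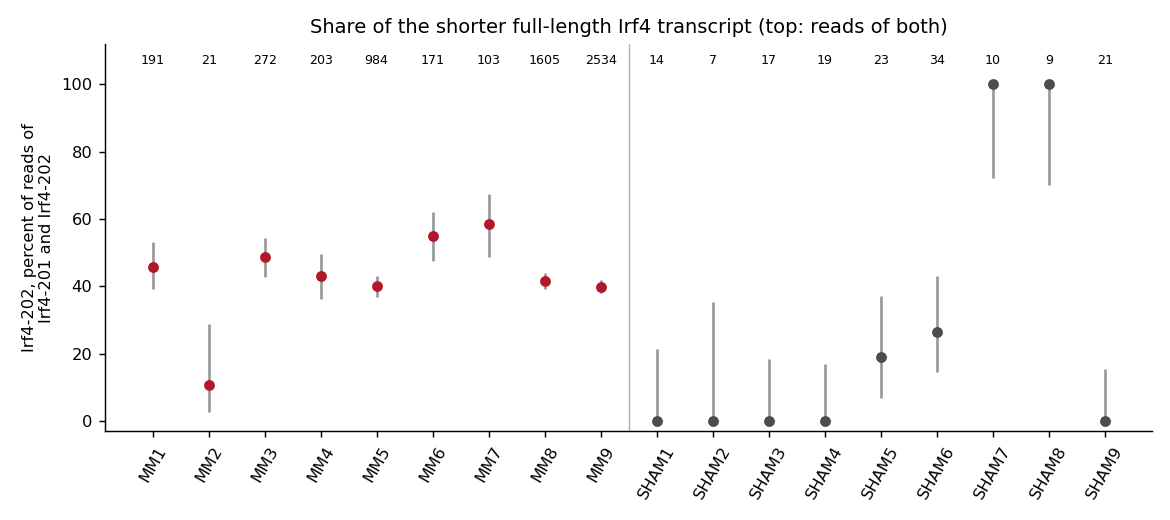
Share of Irf4-202 in the reads of Irf4-201 and Irf4-202 (percent) in each library, MM (red) left of SHAM (grey), with 95% Wilson intervals and the number of reads above each point. Apart from MM2 at 10.7%, MM libraries lie between 39.9% and 58.5%, and SHAM libraries have few reads and wide intervals. Intervals count all reads assigned to either transcript and are too narrow.

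Other members were also split between transcripts. For Prdm1, Prdm1-202 (coding length 2469 bases, beside 2568 for Prdm1-201) took 22% of 1489.2 reads in MM and 10% of 76 reads in SHAM libraries. It received reads in 7 MM and 2 SHAM libraries. For Slamf7, Slamf7-202 (coding length 882 bases, beside 999 for Slamf7-203) took 22.3% of 1143 reads in MM libraries. In SHAM libraries it took 0 of 123 reads. The upper ends of the 95% Wilson intervals ran from 14.3% in SHAM6 to 49% in SHAM1 and SHAM7. As for Irf4, these intervals count every read of the gene and are too narrow. No share of Slamf7-202 in a single SHAM library can thus be read at this depth. Pooled over SHAM libraries, 3 reads would make 2.44% of the 123. A difference in share between the groups was not tested. Slamf7-202 received reads in 7 of 9 MM libraries, and the highest share was 29.4%. MM2 and MM7 were at 0.

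Among the receptors, Tnfrsf17 (BCMA, ENSMUSG00000022496) was not detected above a few reads. It received 8 reads over all MM libraries and 8 over all SHAM libraries, and no library reached the filter. Reads numbered 0, 2, 2, 0, 0, 3, 1, 0 and 0 in MM1 to MM9, against 1, 1, 0, 2, 1, 2, 0, 0 and 1 in SHAM1 to SHAM9. MM5, MM8 and MM9, the libraries with most Ighg2b, held 0 reads each. Tnfrsf13b (TACI, ENSMUSG00000010142) stood at 4.39, 1.63, 5.82, 5.46, 21.1, 4.54, 2.06, 24.8 and 40.8 CPM in MM1 to MM9, against 2.45, 2.01, 2.01, 1.81, 1.82, 1.87, 1.75, 1.48 and 1.86 CPM in SHAM1 to SHAM9. MM2 and MM7 lay inside the SHAM range, and the other 7 MM libraries were above it. The mean was 12.3 ± 13.6 CPM in MM and 1.89 ± 0.26 CPM in SHAM libraries, with a log2 fold change of 2.69 ± 0.54. Its call was lost without MM5, and also without MM5, MM8 and MM9 (log2 fold change 1.07), without SHAM5 and SHAM9 (2.69), without SHAM7 and SHAM8 (2.63) and with limma on the deposited normalized values (2.02).

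Compared per transcript length, in Salmon's length-scaled TPM, TACI transcripts exceeded BCMA transcripts in every library. In MM9 Tnfrsf13b stood at 45.7 TPM summed over its transcripts, while Tnfrsf17 had 0 reads. As 3 reads of Tnfrsf17 would equal 0.417 TPM, the Tnfrsf13b sum was at least 109.6-fold higher. Of that sum, Tnfrsf13b-201 (2556 bases) held 53.34%. The short Tnfrsf13b-207 (364 bases) and Tnfrsf13b-206 (532 bases) held 31.37% and 13.33%, though they took 1.47% and 1.95% of the gene's reads over all MM libraries. The bound for Tnfrsf13b-201 alone is thus lower. For the sum over transcripts, the bound was 56.0-fold in MM8 and 52.9-fold in MM5. In SHAM libraries Tnfrsf13b stood between 1.14 and 2.68 TPM, and 3 reads of Tnfrsf17 would equal 0.449 to 0.516 TPM.

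**Figure D3:**
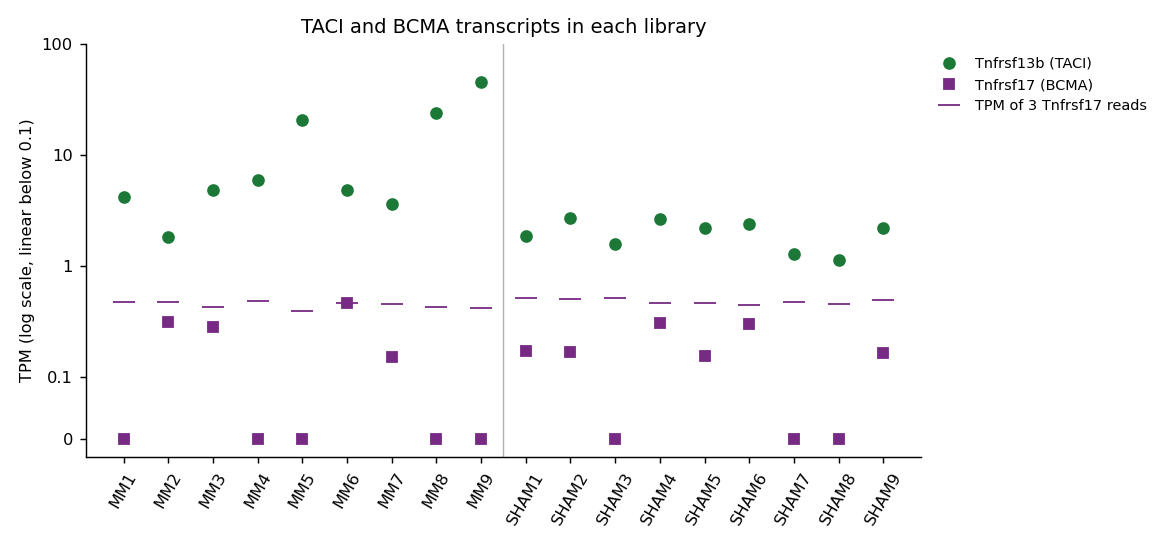
TPM of Tnfrsf13b (TACI, circles) and Tnfrsf17 (BCMA, squares) in each library, MM left of SHAM, on an axis that is logarithmic above 0.1 TPM and linear below it; dashes mark the TPM of 3 Tnfrsf17 reads. Tnfrsf13b reaches 45.7 TPM in MM9, where Tnfrsf17 has 0 reads.

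Il5ra (ENSMUSG00000005364), the ligand-binding chain of the interleukin-5 receptor, stood at 3.06, 0.443, 5.53, 6.78, 17, 3.12, 1.2, 20 and 47.9 CPM in MM1 to MM9, against 0.0533, 0.1, 0.201, 0, 0.326, 0.0958, 0.05, 0.212 and 0.568 CPM in SHAM1 to SHAM9. The next highest library after MM9 was MM8, and 8 MM libraries were above every SHAM library. Within SHAM the highest values were those of SHAM9 and SHAM5 (11 and 7 reads), which were also the SHAM libraries with most Ighg2b. No other member was highest within SHAM in either of these. Irf4, Pou2af1, Lax1, Slamf7, Sdc1 and Cd38 were highest in SHAM6, where Ighg2b stood at 0.144 CPM. The mean of Il5ra was 11.7 ± 15.2 CPM in MM and 0.178 ± 0.178 CPM in SHAM libraries, with a log2 fold change of 5.98 ± 0.88. In mice this receptor is also carried by eosinophils and B-1 cells. Of 4 eosinophil markers, 1 was tested and 0 were called by edgeR or by DESeq2, with 0 at an unadjusted p under 0.05. Their summed level was 1.01 to 9.03 CPM in MM and 0.803 to 4.70 CPM in SHAM libraries, and Siglecf and Ccr3 stayed under 0.5 CPM in every MM library. Prg2 averaged 2.07 ± 2.03 CPM in MM and 1.54 ± 1.09 CPM in SHAM libraries, and Epx 0.635 ± 0.665 CPM in MM and 0.516 ± 0.466 CPM in SHAM libraries.

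Among the membrane proteins, Sdc1 (ENSMUSG00000020592), the heparan sulphate proteoglycan syndecan-1, was the member with the highest level in SHAM libraries. It stood at 28.8, 16.4, 31.3, 48.6, 73.3, 27.1, 25.1, 77 and 122 CPM in MM1 to MM9, against 20.5, 19.9, 21.5, 24.8, 18.5, 27.4, 23.1, 25.9 and 20.4 CPM in SHAM1 to SHAM9. MM6 and MM7 lay inside the SHAM range, MM2 lay below it, and 6 MM libraries were above it. The mean was 50 ± 34.5 CPM in MM and 22.4 ± 3.02 CPM in SHAM libraries, with a log2 fold change of 1.15 ± 0.31. Its call was lost in 12 of the 18 fits that left out 1 library, including those without MM4, MM5, MM8 or MM9 and those without any SHAM library other than SHAM6. Without MM5, MM8 and MM9 its log2 fold change was 0.39, and it was 1.1 without SHAM5 and SHAM9 and 1.19 without SHAM7 and SHAM8. The call was also lost with DESeq2 size factors in edgeR (1.15), with no filter (1.14) and with limma on the deposited values (0.86).

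Slamf7 (ENSMUSG00000038179), a surface receptor of plasma cells and natural killer cells, stood at 1.53, 0.493, 3.15, 2.83, 12.1, 1.89, 0.814, 12.9 and 20 CPM in MM1 to MM9, against 0.213, 0.652, 1, 0.878, 0.745, 1.1, 0.2, 0.371 and 0.93 CPM in SHAM1 to SHAM9. MM2 and MM7 were inside the SHAM range, and MM5, MM8 and MM9 were the highest. The mean was 6.2 ± 7.02 CPM in MM and 0.677 ± 0.342 CPM in SHAM libraries. The log2 fold change was 3.18 ± 0.66, and the call was lost without MM5, without SHAM8, and without either pair of SHAM5 and SHAM9 or SHAM7 and SHAM8. The call of Slamf7 was also lost without MM5, MM8 and MM9, where its log2 fold change was 1.38. Of the 6 natural killer cell markers, 0 passed the filter and 2 were called by DESeq2, with a summed level of 0.479 to 4.56 CPM in MM, highest in MM5, and 0.265 to 1.44 CPM in SHAM libraries. Klrk1 peaked at 1.72 CPM among MM libraries and at 0.402 among SHAM libraries, Gzma at 1.4 among MM and 0.287 among SHAM, Prf1 at 0.838 among MM and 0.383 among SHAM, and Eomes at 0.512 among MM and 0.1 among SHAM libraries. Ncr1 and Klrb1c stayed under 0.5 CPM in every library of both groups, at means of 0.0916 and 0.217 CPM in MM and 0.121 and 0.16 CPM in SHAM libraries. The part of natural killer cells in the level of Slamf7 was not tested.

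Cd38 (ENSMUSG00000029084), an enzyme of the cell surface that cleaves NAD and is found on many blood cells, stood at 5.37, 3.99, 2.48, 3.12, 11.2, 4.49, 5.22, 6.46 and 8.83 CPM in MM1 to MM9, against 2.98, 3.36, 4.47, 3.12, 3.54, 5.27, 2.65, 1.86 and 3.1 CPM in SHAM1 to SHAM9. Its groups overlapped more than those of the called members, with 4 MM libraries above the SHAM range, led by MM5. The mean was 5.69 ± 2.80 CPM in MM and 3.37 ± 0.996 CPM in SHAM libraries. The log2 fold change was 0.75 ± 0.26, and it was not called. Lax1 (ENSMUSG00000051998), an adaptor that lies in lymphocyte membranes and dampens antigen receptor signals, stood at 4.48, 0.0985, 5.91, 4.19, 26.5, 4.21, 1.63, 24.4 and 47.5 CPM in MM1 to MM9, against 0.32, 0.15, 0.251, 0.195, 0.326, 0.479, 0.25, 0.159 and 0.258 CPM in SHAM1 to SHAM9. MM2, with 2 reads, was below every SHAM library, and the other 8 MM libraries were above every SHAM library. The mean was 13.2 ± 16.1 CPM in MM and 0.265 ± 0.101 CPM in SHAM libraries, with a log2 fold change of 5.60 ± 0.84.

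Of 8 macrophage markers tested, 4 were called higher in MM (Cd68, C1qa, C1qb and Aif1, edgeR adjusted p from 0.0171 to 0.0366). Of all genes tested in edgeR, 2.75% were called higher. In edgeR 7 of the 8 markers were at an unadjusted p under 0.05, and DESeq2 called 5. The summed level of the 8 was 72.1 to 394 CPM in MM and 45.0 to 110 CPM in SHAM libraries. None of the 8 was at 0, and MM5 was the highest. MM5 was also the highest library for Cd38 and for the summed T cell markers, which ranged from 2.96 to 12.1 CPM in MM and from 2.49 to 4.98 CPM in SHAM libraries. The part of these cells in the levels of Cd38, Slamf7 and Prdm1, which they can express, was not tested. Of 8 T cell markers 2 were tested and 0 called (1 at an unadjusted p under 0.05, 0 by DESeq2). Of 6 dendritic cell markers 3 were tested and 0 called by edgeR or by DESeq2 (0 at an unadjusted p under 0.05), and their summed level was 30.0 to 38.5 CPM in MM and 32.2 to 37.4 CPM in SHAM libraries. Of 4 neutrophil markers 3 were tested and 0 called (2 at an unadjusted p under 0.05, 1 by DESeq2), and their summed level was 6.45 to 36.6 CPM in MM and 9.33 to 116 CPM in SHAM libraries.

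Per transcript length, the order of the members differed between the groups. In MM libraries the mean levels were 32.3 TPM for Sdc1, 22.7 for Pou2af1, 14.8 for Lax1, 12.8 for Tnfrsf13b, 11.6 for Irf4, 5.52 for Il5ra, 4.57 for Slamf7, 3.16 for Cd38, 2.74 for Prdm1 and 0.135 for Tnfrsf17. For each gene but the last, the SD over MM libraries exceeded the distance of its mean to that of the next gene. These means sum all transcripts, and short ones weigh heavily. Lax1-202 (628 bases) took 10.22% of Lax1 reads in MM but 40.27% of its TPM. Tnfrsf13b-201 took 93.69% of Tnfrsf13b reads in MM but 60.08% of its TPM. The order of Lax1, Tnfrsf13b and Irf4 thus depends on how reads were divided between transcripts. Counted library by library, Sdc1 was above Pou2af1 in 8 of 9 MM libraries, Irf4 was above Il5ra in 9 of 9, and Lax1 was above Tnfrsf13b in 4 of 9. In SHAM libraries Sdc1 led at 15.9 TPM, above Cd38 in 9 of 9 libraries, followed by Cd38 at 2.10 TPM and Tnfrsf13b at 2.0 TPM. The other 7 members had SHAM means between 0.0987 and 0.586 TPM, and neighbours in that range changed places from library to library.

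How the members varied among themselves within MM was not used to choose them. For each member the CPM above its SHAM mean was set against that of Ighg2b in the 8 MM libraries other than MM2, which was left out after its values were seen. Ighg2b itself spanned 43.8-fold over these libraries, and the light chain Igkc relative to Ighg2b spanned 1.3-fold. Lax1 relative to Ighg2b spanned 1.56-fold, Pou2af1 1.69-fold, Irf4 1.99-fold and Il5ra 2.24-fold. Sdc1 spanned 3.73-fold, Prdm1 4.30-fold, Slamf7 4.69-fold and Tnfrsf13b 6.47-fold. The level of all 8 members with a span thus varied less per unit of Ighg2b than Ighg2b itself. Sdc1 was highest in MM4, at 6.78 CPM per 100 CPM of Ighg2b beside a median of 2.31, and Tnfrsf13b was lowest in MM7, at 0.164 beside a median of 0.908. Cd38 exceeded its SHAM mean in 6 of the 8 libraries and Tnfrsf17 in 3, so no span was computed for them. The members with the wider spans include those with the higher SHAM levels, where the SHAM mean takes up more of the value, and the part of that in the spans was not tested. The median span over the 8 members with a value was 2.99-fold, 1.91-fold without MM4 and 1.96-fold without MM7.

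**Figure D4:**
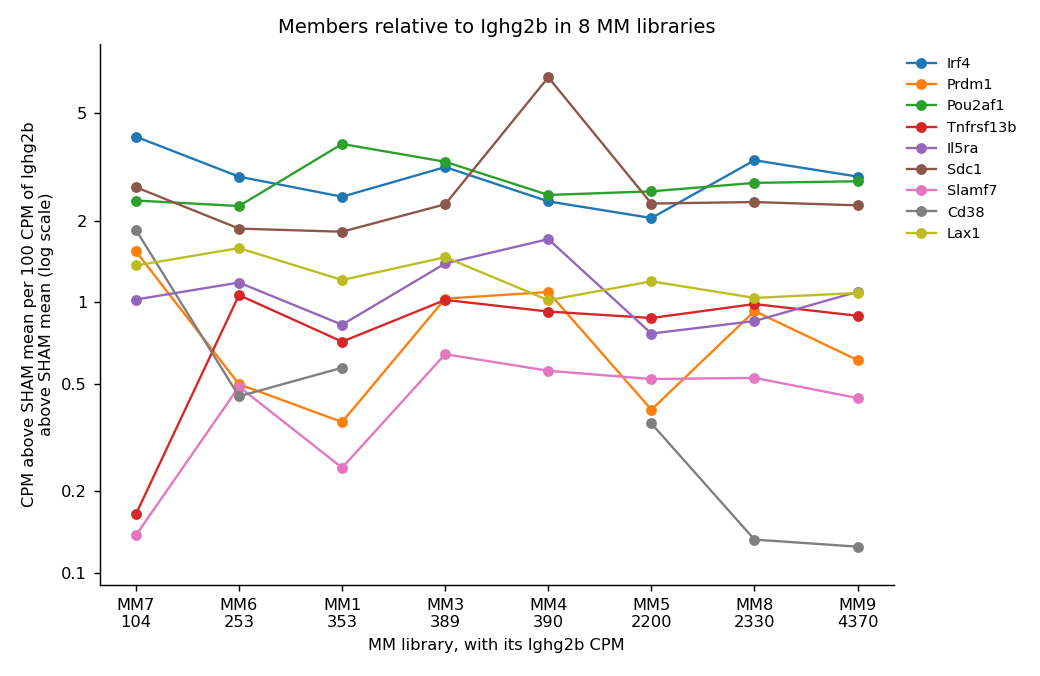
CPM above the SHAM mean of each member per 100 CPM of Ighg2b above its SHAM mean (log scale), in 8 MM libraries ordered by Ighg2b, whose CPM stands under each name. Irf4, Pou2af1, Lax1 and Il5ra stay within 2.24-fold, Sdc1 peaks in MM4, and Tnfrsf13b and Slamf7 are lowest in MM7; gaps are libraries where Cd38 was below its SHAM mean.

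The genes closest to the mean of the members within MM were ranked by an SD over the 9 MM libraries. It was that of the difference between their log2 CPM and the mean log2 CPM of the 10 members. Among 11994 other genes with a mean of at least 5 CPM in MM, the 8 with the smallest SD were Gm29084 (0.229), Gm48368 (0.273), Cdc20 (0.275), Epop (0.289), H2-Q6 (0.292), Gm10040 (0.292), Cdt1 (0.296) and Cdk1 (0.301). Cdc20, Cdt1 and Cdk1 act in cell division and DNA replication. Cdk1 averaged 6.48 ± 7.39 CPM in MM and 0.659 ± 0.325 CPM in SHAM libraries (SD, n = 9 each), with a log2 fold change of 3.28 and an edgeR adjusted p of 0.0141. Reads of H2-Q6, an MHC class I gene, can be shared with its close copies, and the Gm symbols are gene models without a known role. Of the members themselves, Tnfrsf13b followed the mean of the others most closely (0.326), and Cd38 (1.34) and Tnfrsf17 (2.09) least. Irf4 (0.709), Pou2af1 (1.05) and Lax1 (1.08) lay between. Every member thus had a larger SD than the 8 genes named, so the ranking describes likeness to the mean and not to single members.

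Other genes of the plasma cell programme were taken from a list of 16. Of these 10 were tested, 3 were higher in MM, beside 2.75% of all genes tested, and 0 lower. The median log2 fold change was 0.88. The 3 were Jchain, the joining chain of antibody polymers (log2 fold change 3.04, edgeR adjusted p = 0.0118), Fkbp11, a chaperone of the secretory route (2.02, adjusted p = 0.0267), and the integrin chain gene Itga4 (1.78, adjusted p = 0.032). Jchain ranged from 0.542 to 12.2 CPM around a median of 2.22 CPM in MM, against 0.207 to 0.904 CPM around a median of 0.439 CPM in SHAM libraries. Unlike most members it was highest in MM5, and 7 of 9 MM libraries were above the SHAM range. The call of Jchain held in all 18 fits without 1 library, whereas that of Fkbp11 was lost in 10 and that of Itga4 in 11. Leaving out MM5, MM8 and MM9, SHAM5 and SHAM9, or SHAM7 and SHAM8 left 0 of the list called, against 1 without MM5, MM8 or MM9, 5 without SHAM6 and 6 without MM2. Xbp1, the regulator of the secretory programme, had a mean of 138 ± 81.7 CPM in MM and 78.1 ± 11.8 CPM in SHAM libraries and did not pass (log2 fold change 0.82, edgeR adjusted p = 0.0783). Edem1, which clears misfolded proteins (0.94, adjusted p = 0.0526), Txndc5 (0.34, adjusted p = 0.139) and Ell2 (0.16, adjusted p = 0.262) did not pass in edgeR either. Mzb1, a chaperone gene of B-lineage cells, stayed at or below 1.11 CPM in MM and 0.201 CPM in SHAM libraries and was not tested. Of the 10 tested genes, 8 were at an unadjusted p under 0.05 in edgeR, and of the whole list DESeq2 called 8.

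Of 15 B cell identity genes, many of which a plasma cell silences, 13 were tested. Blnk, an adaptor of the B cell receptor, was higher in MM, and Cd79a, a signalling chain of that receptor, was lower, and the median log2 fold change of the list was -0.24. Blnk ranged from 0.739 to 52.9 CPM around a median of 4.10 CPM in MM, against 0.373 to 1.82 CPM around a median of 0.750 CPM in SHAM libraries (log2 fold change 4.15, edgeR adjusted p = 0.00998). Its highest and lowest MM libraries were MM9 and MM2, as for most members. Cd79a ranged from 1.61 to 3.77 CPM in MM and from 2.39 to 7.71 CPM in SHAM libraries (log2 fold change -0.86, edgeR adjusted p = 0.049). The call of Cd79a was lost in 15 of the 18 fits without 1 library, and 0 genes of the list passed without SHAM5 and SHAM9 or without SHAM7 and SHAM8, against 1 without MM7, MM8, SHAM1, SHAM2, SHAM3, SHAM4, SHAM5, SHAM7 or SHAM8. Cd79b, the partner chain of Cd79a, had a log2 fold change of 2.31 (edgeR adjusted p = 0.073) and did not pass. Ebf1, Bcl6 and Bach2 had log2 fold changes of -0.13, 0.09 and -0.24 and did not pass. Ms4a1, Spib and Pax5 had log2 fold changes of -2.11, -1.49 and -1.26 and did not pass either (edgeR adjusted p = 0.0737, 0.126 and 0.105). Of the 13 tested genes, 4 had a positive log2 fold change. In edgeR 8 were at an unadjusted p under 0.05, and of the whole list DESeq2 called 6.

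The ligands and signalling partners of the member receptors gave 0 calls in edgeR among 14 of 17 genes tested, with 4 at an unadjusted p under 0.05 and 3 called by DESeq2; their median log2 fold change was 0.19. Without MM2 the edgeR count was 1. The BAFF gene Tnfsf13b averaged 3.15 ± 0.232 CPM in MM and 3.23 ± 0.496 CPM in SHAM libraries (log2 fold change -0.04 ± 0.10). The APRIL gene Tnfsf13 averaged 1.57 ± 1.21 CPM in MM and 1.23 ± 0.841 CPM in SHAM libraries, and Il5, the ligand of the Il5ra receptor, averaged 0.469 ± 0.222 CPM in MM and 0.559 ± 0.185 CPM in SHAM libraries. For these 3 ligands the difference between the means was smaller than the SD over libraries. The third receptor of BAFF, Tnfrsf13c, averaged 2.76 ± 2.95 CPM in MM and 0.846 ± 0.48 CPM in SHAM libraries (log2 fold change 1.69, edgeR adjusted p = 0.0874). Csf2rb, the signalling chain shared by the interleukin-5 receptor, had a log2 fold change of 1.17 (edgeR adjusted p = 0.0833). The 4 genes of the list with the highest TPM were Sdcbp, Il6st, Cxcl12 and Pecam1, with log2 fold changes of 0.03, -0.08, 0.23 and 0.44, and none passed.

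Close relatives of the members were compared to see whether families moved as a whole. Of 19 relatives 14 were tested, 3 were higher in MM, beside 2.75% of all genes tested, and 0 lower. The median log2 fold change was 0.55. The 3 were SLAM-family neighbours of Slamf7, namely Slamf9 (log2 fold change 2.18, edgeR adjusted p = 0.0255), Ly9 (1.84, adjusted p = 0.0325) and Cd48 (2.15, adjusted p = 0.049). Slamf9 ranged from 2.71 to 30.5 CPM in MM, highest in MM5, and from 1.01 to 5.13 CPM in SHAM libraries. These receptors are also carried by macrophages and other leukocytes, whose markers were given above, and their part was not tested. None of the list passed without MM5, MM8 or MM9, without any single SHAM library other than SHAM4 and SHAM6, or in the 3 fits that left out several libraries. The other syndecans did not pass, with log2 fold changes of 0.01 for Sdc2, -0.06 for Sdc3 and 0.39 for Sdc4, beside 1.15 for Sdc1. Irf8, a relative of Irf4 in other leukocytes, averaged 5.28 ± 3.82 CPM in MM and 3.05 ± 1.37 CPM in SHAM libraries (log2 fold change 0.79, edgeR adjusted p = 0.192).

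**Figure D5:**
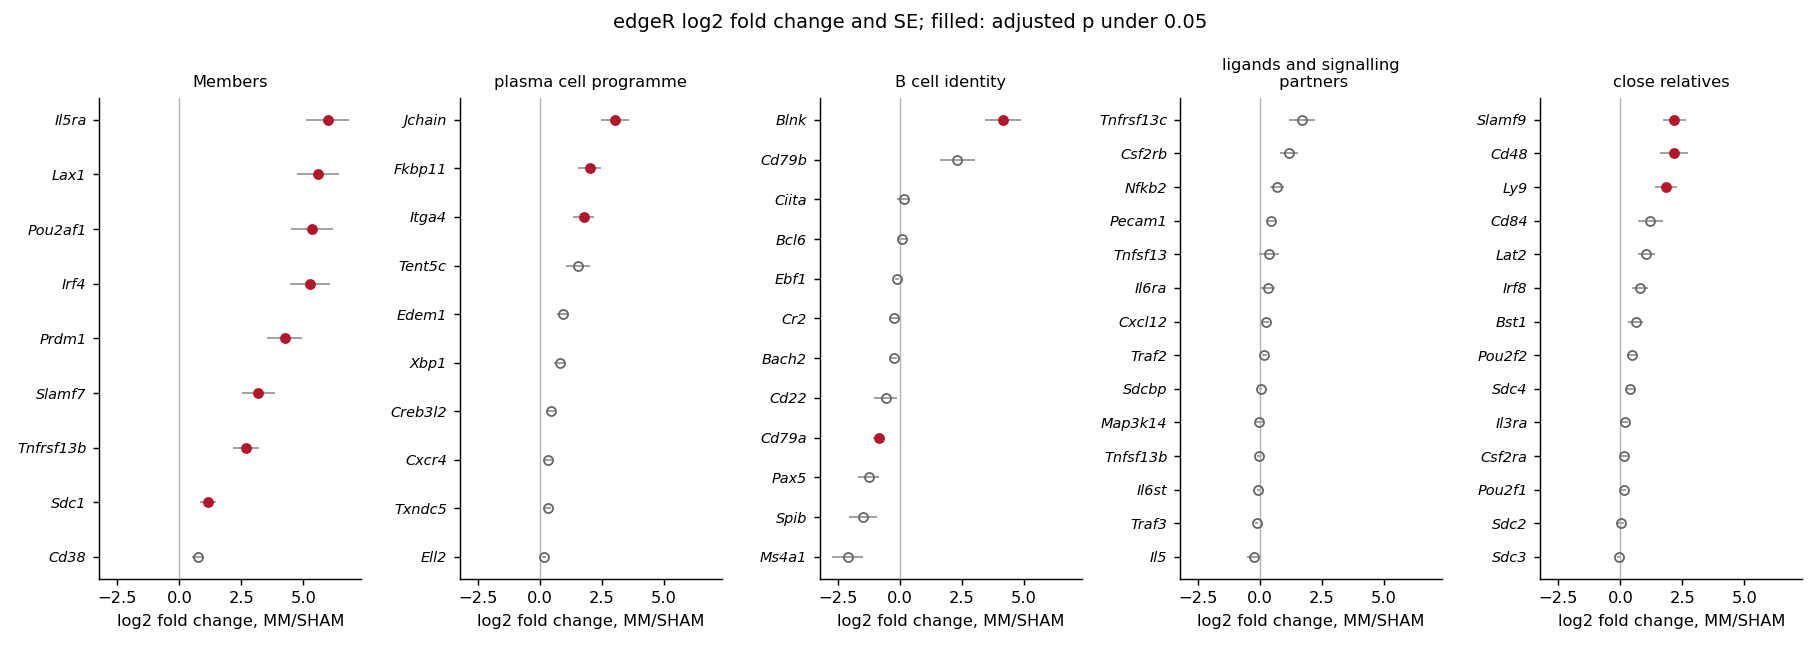
log2 fold change of MM over SHAM with its SE for the tested members and for tested genes of 4 lists; filled points passed the edgeR adjusted p threshold of 0.05. Members reach 5.98 (Il5ra), while the ligands and signalling partners have 0 filled points and the B cell list holds points on both sides of 0.

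Promoters of the members were searched for 5 short motifs on both strands, in windows of 250 bases before to 50 bases after the start of each gene (RefSeq, GRCm38.p6). All 10 members had a window, and Lax1 had 2. The octamer ATGCAAAT, which OCT factors bind with the product of Pou2af1, was in 1.74% of 32851 windows and in 0 of the members' windows. The pair GAAANNGAA, bound by IRF factors, was in 8.56% of windows and in that of Tnfrsf17. The composite GGAANNGAA, bound by an ETS factor with IRF4, was in 8.24% of windows and in that of Cd38, 42 bases before the start. TATAAA was in 13.6% of windows and in those of Irf4 and Tnfrsf17, and CAGGTG, an E-box, was in 20.2% of windows and in that of Prdm1. A match is a description of these letters and not a binding site. The bases before the start are shown for Irf4 and Prdm1, the regulators with a match, and for Tnfrsf17, the member with the fewest reads and the most matches; capitals mark the matched letters. They lie at chr13:30748983-30749232 on the + strand (Irf4), chr10:44458749-44458998 on the - strand (Prdm1) and chr16:11313559-11313808 on the + strand (Tnfrsf17).
Irf4: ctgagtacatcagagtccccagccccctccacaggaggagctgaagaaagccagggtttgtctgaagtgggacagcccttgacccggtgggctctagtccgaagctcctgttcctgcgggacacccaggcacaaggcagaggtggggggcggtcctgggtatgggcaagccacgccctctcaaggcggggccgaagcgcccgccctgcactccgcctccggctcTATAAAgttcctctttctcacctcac
Prdm1: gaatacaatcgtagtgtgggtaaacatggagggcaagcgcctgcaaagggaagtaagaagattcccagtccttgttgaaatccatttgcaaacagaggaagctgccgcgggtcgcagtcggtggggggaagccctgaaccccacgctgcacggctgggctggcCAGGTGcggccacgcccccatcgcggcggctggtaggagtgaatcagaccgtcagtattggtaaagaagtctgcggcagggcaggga
Tnfrsf17: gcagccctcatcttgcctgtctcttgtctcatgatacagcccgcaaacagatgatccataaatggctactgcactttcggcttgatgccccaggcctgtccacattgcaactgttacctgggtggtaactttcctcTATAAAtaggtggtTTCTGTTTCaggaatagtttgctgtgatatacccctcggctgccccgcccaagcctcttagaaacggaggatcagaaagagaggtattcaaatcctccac
In Irf4 the TATA letters begin 26 bases before the start, and in Prdm1 the E-box begins 87 bases before it. In Tnfrsf17 the TATA letters begin 114 bases and the IRF pair, read on the - strand, 100 bases before the start.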

How the data were processed

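The authors deposited, for each library, Salmon output with an estimated count of reads per transcript and a TPM value; Salmon 1.5.2 and the GRCm39 build are named per the submitters' processing notes, and the index and annotation are not given in the sources used here. They also deposited a table of normalized signal per gene, made with DESeq2 per the submitters' processing notes. RNA was total RNA sequenced by a provider on DNBSEQ instruments, per the labels.

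Estimated counts were summed per gene through GENCODE M21 (GRCm38) by transcript number without version, and rounded; 3620 of 137562 transcripts had no gene there and held 0.85% to 1.339% of reads. Because that build differs from GRCm39, the genome positions given are those of GRCm38 and serve sequences of the annotation alone. Genes were kept by filterByExpr and tested in edgeR 4.0.16 (R 4.3.3) by a robust quasi-likelihood fit after TMM scaling, with group as the only term; adjusted p under 0.05 counted as passing. The common biological coefficient of variation was 0.258. The script was tested on simulated data. CPM are TMM-scaled; log2 CPM used a prior count of 2. Where the count of a gene is 0, 3 reads is the limit given.

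The members and the lists were chosen with earlier results of these data known. All members are named, with their value in every library. From each of the 4 pathway lists up to 6 passing genes per direction were named. Up to 4 not passing, those with the highest TPM, were also named. Mzb1, Irf8, Tnfsf13, Tnfsf13b, Tnfrsf13c, Il5, Csf2rb, Ms4a1, Spib, Pax5, the macrophage markers, Eaf2 and Bhlha15 were named after their values were seen. In the B cell list 1 gene that counts towards its totals is not reported here. Alternatives were DESeq2 1.42.0, its size factors in edgeR, no filter, limma 3.58.1 on log2(deposited normalized signal + 1), the replicate number as a block, and fits without libraries. The labels do not state that equal numbers in MM and SHAM pair mice.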

Additional observations from a re-analysis of the deposited data

Results flagged for a closer look

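Il5ra in MM9, at 47.9 CPM, was far from the other 8 MM libraries: the gap to the next, MM8 at 20.0 CPM, made up 0.587 of the whole range of the group. It was the only value among the members' groups set apart in this way. The gap was taken on CPM without a log. Chance is said to set apart about 1 in 20 groups, a rate that may not hold for skewed values such as these. MM9 was also the highest library for Irf4, Pou2af1 and Ighg2b, and relative to Ighg2b Il5ra spanned 2.24-fold over 8 MM libraries.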

How the results depend on the processing

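The DESeq2 setting also changed the scaling and the filter on low counts, and the limma setting the input values, their scaling and the genes tested. The 471 genes called by edgeR became 1376 with DESeq2, 248 with limma on the deposited values, 60 without MM5, MM8 and MM9, 24 without SHAM5 and SHAM9 and 35 without SHAM7 and SHAM8; without 1 library the count ran from 84 (without MM5) to 1014 (without MM2), the cause of which was not tested. The 8 members called ran from 5 (without MM5) to 8 without 1 library, and became 5 without MM5, MM8 and MM9, 4 without SHAM5 and SHAM9 and 5 without SHAM7 and SHAM8. The 3 plasma cell programme calls became 8 with DESeq2 and 0 in each of the 3 fits without several libraries, and ran from 1 (without MM5, MM8 or MM9) to 6 (without MM2) without 1 library. The 3 B cell calls became 6 with DESeq2, 1 with no filter, 5 with limma, 5 without MM5, MM8 and MM9, and 0 in both fits without SHAM pairs, and ran from 1 to 4 without 1 library. The 0 calls among ligands and partners became 3 with DESeq2 and ran from 0 to 1 (without MM2). The 3 calls among relatives became 1 with no filter, 0 with limma and 0 in each of the 3 fits without several libraries, and ran from 0 to 3 without 1 library. The median span of 2.99-fold ran from 1.91 to 2.99 without 1 library. With the replicate block the counts were 8 genes, 3 members (Irf4, Il5ra and Lax1), and 0 in each of the 4 lists. Correlations of deviations between same-numbered libraries ran from -0.34 to 0.31, over 0.1 in 2 of 9 pairs. Of the MM libraries, 2 were closest to their own number. MM deviations also hold the wide range seen in Ighg2b, so these correlations cannot decide whether equal numbers pair mice. Over all settings, 200 of 234 values of single members kept their direction and their side of the threshold, 34 fell short of it and 0 reversed; of 1586 values of other named genes 1387 kept both, 149 fell short, 22 newly passed and 28 changed sign. The 28 belong to 13 genes that edgeR did not call, and 0 of them passed the threshold. Without MM5, MM8 and MM9 the log2 fold change was -0.02 for Creb3l2, -0.05 for Cxcr4, -0.21 for Ciita, -0.01 for Tnfsf13, -0.01 for Pou2f1, -0.04 for Pou2f2, -0.12 for Sdc2, -0.17 for Cd84 (1.21 with all libraries) and -0.10 for Csf2ra. With limma it was 1.11 for Cr2 (-0.22 with edgeR), -0.20 for Ciita, and -0.01 each for Sdcbp, Pou2f1 and Sdc2, and with the replicate block -0.01 for Sdc2. It was -0.05 for Sdc2 in both fits without SHAM pairs and 0.03 for Tnfsf13b without SHAM7 and SHAM8. Without 1 library it ran from -0.12 to 0.26 for Ciita, from -0.06 to 0.68 for Tnfsf13, from -0.13 to 0.03 for Map3k14 and from -0.13 to 0.08 for Sdc2. The cause was not tested. Depth limits Tnfrsf17, the SHAM levels of Il5ra and Lax1, and SHAM transcript shares.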

Other observations

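A pair of plasma cell programme genes that the filter removed had MM values like those of the members, and they were singled out after their values were seen. Eaf2, an elongation factor partner, ranged from 0.0985 to 21.4 CPM in MM and from 0.05 to 0.465 CPM in SHAM libraries. Bhlha15, which encodes the secretory cell regulator MIST1, ranged from 0.0479 to 3.13 CPM in MM and from 0 to 0.140 CPM in SHAM libraries. In both, 8 of 9 MM libraries were above every SHAM library. In the edgeR fit with no filter on low counts their log2 fold changes were 4.17 ± 0.78 (adjusted p = 0.0225) and 4.41 ± 0.90 (adjusted p = 0.0278).

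Relative to Irf4 instead of Ighg2b, the transcripts of its partner in the switch to plasma cells, Prdm1, ran from 14.6 CPM per 100 CPM of Irf4 in MM1 to 46.3 in MM4, both above their SHAM means. Lax1 ran from 31.0 in MM8 to 58.3 in MM5, the narrowest span of the members relative to Irf4. These are values of single mice and carry no test.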
